A study of Mus musculus with 3 samples.

Results

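The genes described here are 10 immediate early and AP-1 genes: the Jun family genes Jun, Junb and Jund, the Fos family genes Fos, Fosb, Fosl1 and Fosl2, and the genes Egr1, Atf3 and Ier2. They were taken by name as known members of these families, and all 10 were found among the 35562 genes of the deposited tables. RNA was sequenced from 3 mouse myoblast lines, numbered 66, 67 and 72, of the genotype Dmdmdx; Pax7-nGFP. Dmdmdx is the dystrophin allele of the mdx mouse, a model of Duchenne muscular dystrophy, and Pax7-nGFP is a nuclear green fluorescent reporter of the satellite cell gene Pax7. All 3 lines had undergone CRISPR/Cas9 editing of the mdx mutation in induced pluripotent stem cells (iPSCs), and came from satellite cells of mouse chimeras that developed from blastocysts injected with such iPSCs. The study's host blastocysts carried Pax7-CreERT2 and Rosa26-lsl-DTA, in which tamoxifen switches on diphtheria toxin A in host cells that use the Pax7 promoter, and later experiments used other hosts. The labels of the 3 libraries give neither the host, the chimera, its age nor tamoxifen for any line. The study verified the edit in 1 iPSC clone, so the lines may share a clonal origin.

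The 3 libraries form a single group, with 1 library per line. Neither unedited nor wild-type cells form part of these values, and the labels name no stimulated group, so conditions could not be compared. No line had a replicate. The paper describes the sequenced myoblasts as purified by fluorescence-activated cell sorting. The part of sorting or culture in the levels was not tested, so they are not levels of a known resting state. Estimated counts summed to between 66972426 and 73274315 per library, at which a count of 0 allows up to 0.0448 CPM (counts per 1000000 counts of the library). Levels are given as TPM, counts per length scaled to 1000000 in each library, a unit in which different genes can be set side by side. All 10 myoblast markers checked had at least 10 TPM in every line, with Myod1, a muscle transcription factor, at 791, 702 and 579 TPM in lines 66, 67 and 72. No fibroblast, endothelial or immune marker reached 10 TPM in every line. Within the fibroblast list, Lum and Dpt were listed at 0 in every line, and Col1a2 had 7.47, 28.3 and 37.0 TPM.

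Immediate early genes are transcribed within minutes of a stimulus such as serum, growth factors or stress, from transcription factors that are already in the cell, and many of their mRNAs are short-lived. Fos and Jun proteins carry a basic leucine zipper (bZIP), pair with each other, and bind DNA as the factor AP-1. Jun proteins can pair among themselves, whereas Fos proteins need a partner. In satellite cells, Fos, Jun and Egr1 are known to respond quickly when muscle is injured or dissociated.

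The upstream 250 bases of 4 members are shown because they hold letters of motifs bound by factors that control such genes. The sequences were taken from RefSeq (GRCm38.p6), which matched 7 of the 10 members, and run 5′ to 3′ on the strand of the gene up to the base before the transcription start that RefSeq gives. For the 4 shown, and for Junb, this start lies within 30 bases of that of the main transcript measured here, but the window of Fosl2 starts from a site 671 bases inside the gene and that of Jund from one 1210 bases before it. Fos lies at chr12:85473640-85473889 on the plus strand, Jun at chr4:95052223-95052472 on the minus strand, Fosb at chr7:19310046-19310295 on the minus strand and Atf3 at chr1:191183334-191183583 on the minus strand. Capitals mark TGACNTCA, TGACG and TATAAA, the letters of a TATA box, on either strand. With G in place of N, TGACNTCA is the full cyclic AMP response element, and TGACG is the first part of that element.
Fos: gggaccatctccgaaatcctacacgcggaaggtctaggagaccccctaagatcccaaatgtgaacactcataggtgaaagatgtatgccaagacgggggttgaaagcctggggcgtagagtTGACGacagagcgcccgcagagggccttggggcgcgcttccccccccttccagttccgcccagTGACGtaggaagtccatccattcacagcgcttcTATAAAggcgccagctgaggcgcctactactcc
Jun: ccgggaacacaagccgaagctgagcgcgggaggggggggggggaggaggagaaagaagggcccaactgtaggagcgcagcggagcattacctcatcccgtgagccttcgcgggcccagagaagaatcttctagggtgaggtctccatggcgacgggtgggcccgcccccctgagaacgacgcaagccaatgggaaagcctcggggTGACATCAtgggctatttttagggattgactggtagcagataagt
Fosb: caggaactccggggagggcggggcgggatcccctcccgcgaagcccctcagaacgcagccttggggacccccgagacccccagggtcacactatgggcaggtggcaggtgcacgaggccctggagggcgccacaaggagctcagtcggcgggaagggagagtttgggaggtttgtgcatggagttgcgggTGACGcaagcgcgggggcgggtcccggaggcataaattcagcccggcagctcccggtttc
Atf3: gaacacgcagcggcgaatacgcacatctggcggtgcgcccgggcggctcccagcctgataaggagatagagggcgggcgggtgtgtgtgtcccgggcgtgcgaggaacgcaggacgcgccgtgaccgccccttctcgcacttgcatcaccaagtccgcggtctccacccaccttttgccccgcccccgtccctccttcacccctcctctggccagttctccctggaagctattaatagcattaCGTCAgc

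The Fos window held TGACG at bases -129 to -125 and -66 to -62 and TATAAA at bases -33 to -28, counted back from the transcription start. Jun held TGACNTCA at bases -45 to -38. It reads TGACATCA there, which does not contain TGACG and is not the full cyclic AMP response element. TGACG stood at -60 to -56 in Fosb, at -7 to -3 in Atf3 and at -106 to -102 in Junb, so it was present in 4 of 7 member windows, against 17.8% of all 32851 promoter windows of the same length. TGACG was searched after the sequences had been seen. TGACNTCA was in 1 of 7 (7.49% of all), TATAAA in 1 of 7 (12.4%), GGGCGG, the letters bound by Sp1, in 5 of 7 (32.7%), and CCAAT in 2 of 7 (33.8%). Both strands were searched. Neither the CArG box, the binding site of serum response factor (1.47% of all windows), nor TGANTCA, the 7-base AP-1 site (6.75%), was found in these 7 windows. A match of letters is not a measured binding site, and sites farther from the start lie outside these windows.

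The pentamer AUUUA, which marks AU-rich elements through which mRNAs are degraded, was counted in the 3′ UTR of each member's most counted transcript (GENCODE M21, GRCm38). It was present in 9 of 10 members, against 67.7% of the genes with a 3′ UTR among 11340 examined in the same way. Ier2 held none. At least 3 copies were present in 4 of 10 members, against 35.7% of such genes. The longer element UUAUUUA followed by 2 letters A or U was in 2 of 10, against 16.5%. By these stricter counts the members lay close to the share of all genes. Fos had 4.91 copies per 1000 bases of 3′ UTR, Junb 4.12 and Jun 3.24, values above those of 91.6%, 88.2% and 81.1% of genes, and the median member had 1.80 against 1.30 for all genes. One stretch of 30 bases is shown for each of 4 members, as DNA, to show how the copies sit in mRNAs of differing level, with the pentamer in capitals. They lie in the 3′ UTR exons at chr12:85477100-85477129 (Fos, plus strand), chr4:95049207-95049236 (Jun, minus strand), chr5:32156864-32156893 (Fosl2, plus strand) and chr19:5455866-5455895 (Fosl1, plus strand).
Fos: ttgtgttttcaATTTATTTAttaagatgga
Jun: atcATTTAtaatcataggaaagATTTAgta
Fosl2: aattgacATTTAttttattATTTAttttaa
Fosl1: aagggcagctgctATTTAttttcctaaaga

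In the Fos stretch 2 copies overlap, whereas the Jun and Fosl2 stretches hold 2 separate copies and the Fosl1 stretch 1. The whole 3′ UTR holds 4 copies in Fos, 4 in Jun, 8 in Fosl2 and 1 in Fosl1. The main transcripts of Jun, Junb, Jund and Ier2 consist of a single exon (4 of 10 members, against 2.43% of all genes). The median member spans 4698.5 bases of the genome, against 24850.5 for all genes, and its main transcript has a GC content of 55.8%, against 50.2%. Jund, at 67.1% GC, lies above 99.8% of genes.

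The members spanned a wide range of levels, from Jun and Fosl1 at about the same high level to Fosb below 1 TPM. Of the 10 members, 6 had at least 10 TPM in every line (31.5% of the 25510 detected genes did), 3 lay between 1 and 10 TPM, and Fosb was under 1 TPM in every line. The median member stood at 4.84, 4.94 and 4.63 on the log2(TPM + 1) scale in lines 66, 67 and 72 (4.80 ± 0.16, SD, n = 3), where the median detected gene stood at 0.89, 0.85 and 0.91.

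**Figure D1:**
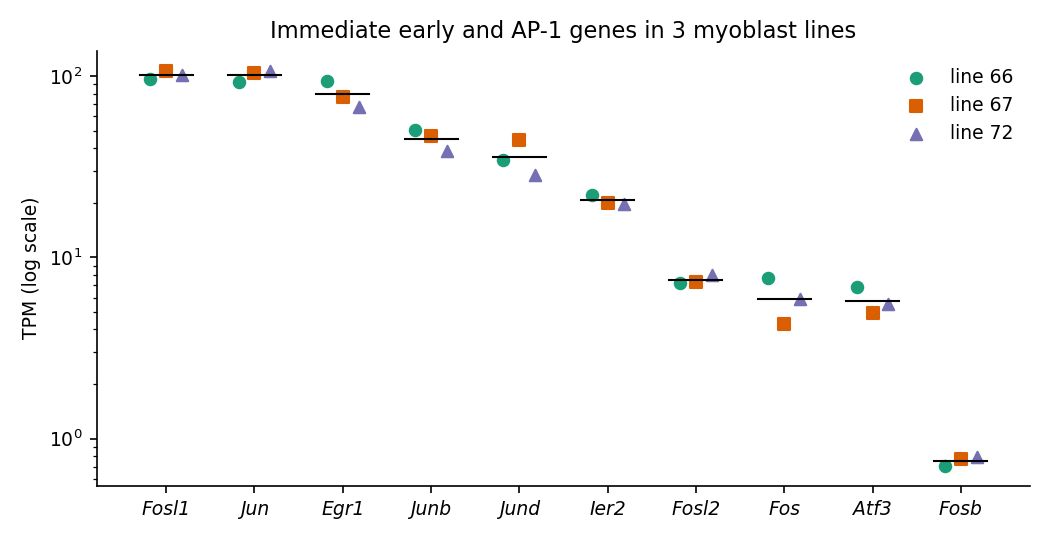
Level of each of the 10 members in TPM (log axis), with 1 symbol per myoblast line and a bar at the mean of the 3 lines. Fosl1, Jun and Egr1 stand highest, between 67.6 and 107 TPM, and Fosb lowest, between 0.706 and 0.787 TPM.

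Among the Jun family genes, Jun, at chr4:95049034-95052222 (minus strand), encodes c-Jun, the main partner of Fos proteins. Its level was 92.3 TPM in line 66, 105 in line 67 and 106 in line 72 (101 ± 7.67, SD, n = 3). The level was lowest in line 66, and the lines differed by at most 1.15-fold. Jun lay above 93.7% of detected genes.

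Junb, at chr8:84974484-84978718 (minus strand), encodes a Jun protein that can restrain c-Jun. Its level was 50.1, 46.4 and 38.8 TPM in lines 66, 67 and 72 (45.1 ± 5.80, SD, n = 3). Unlike Jun, Junb was lowest in line 72 and highest in line 66, which differed by 1.29-fold.

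Jund, at chr8:70698949-70700616 (plus strand), encodes the Jun protein best known from resting cells. Its level was 34.4, 44.3 and 28.4 TPM in lines 66, 67 and 72 (35.7 ± 8.02, SD, n = 3). Line 67 was highest and line 72 lowest, 1.56-fold apart, and 92.2% of genes averaging at least 10 TPM had a smaller log2 range. In counts the lines stood at 45.9, 60.1 and 37.3 CPM, so the order of the lines was the same without division by length. Within each line Jund stood below Junb, but their ranges over the lines overlapped.

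Among the Fos family genes, Fosl1, at chr19:5447547-5455946 (plus strand), encodes Fra-1, a Fos protein that remains abundant in growing cells. Its level was 96.2, 107 and 101 TPM in lines 66, 67 and 72 (101 ± 5.55, SD, n = 3). This was the same level as Jun within the spread of the lines, and the lines differed by at most 1.11-fold.

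Fosl2, at chr5:32135801-32157842 (plus strand), encodes Fra-2 and stood far lower, at 7.18, 7.29 and 8.03 TPM in lines 66, 67 and 72 (7.50 ± 0.46, SD, n = 3). Fos, at chr12:85473890-85477273 (plus strand), encodes c-Fos, the classic short-lived product of stimulation, and had 7.64, 4.27 and 5.86 TPM in the same lines (5.92 ± 1.69, SD, n = 3). Fos was highest in line 66, and its 1.79-fold distance between lines 66 and 67 was the largest of the members in TPM. In CPM, where no length enters, Fos was 1.53-fold apart and Atf3 1.89-fold. Among the 12528 genes averaging at least 1 TPM, 90.7% had a smaller log2 range than Fos and 21.3% a smaller one than Fosl2.

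Fosb, at chr7:19302696-19310051 (minus strand), encodes FosB and had 0.706, 0.771 and 0.787 TPM in lines 66, 67 and 72 (0.755 ± 0.0428, SD, n = 3). These levels rest on 142, 150 and 155 estimated counts, or 1.94 CPM (95% exact Poisson interval 1.63 to 2.28), 2.24 CPM (1.90 to 2.63) and 2.21 CPM (1.87 to 2.58). The intervals overlap, so no difference between the lines was detectable at this depth. Such intervals cover counting error only. Fosb was nevertheless above the limit that a count of 0 allows in each line, and 49.1% of detected genes stood below it.

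Egr1, at chr18:34859823-34864984 (plus strand), encodes a zinc finger transcription factor that growth factors induce through MAP kinases. Its level was 93.4, 76.5 and 67.6 TPM in lines 66, 67 and 72 (79.2 ± 13.1, SD, n = 3). Line 66 was highest and line 72 lowest, 1.38-fold apart, and 84.5% of genes averaging at least 10 TPM had a smaller log2 range. The single transcript Egr1-202 carried 97.2%, 96.8% and 97.3% of the level.

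Atf3, at chr1:191170296-191218039 (minus strand), encodes a bZIP protein of the stress response that can pair with Jun proteins. Its level was 6.88, 4.91 and 5.52 TPM in lines 66, 67 and 72 (5.77 ± 1.01, SD, n = 3), with line 66 highest. In counts the distance was larger: Atf3 had 5.40 CPM (95% exact Poisson interval 4.89 to 5.96), 3.46 CPM (3.03 to 3.94) and 2.86 CPM (2.48 to 3.28). The interval of line 66 lies above those of the other lines.

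Ier2, at chr8:84661331-84662852 (minus strand), encodes a nuclear protein of the immediate early response. Its level was 22.1, 19.9 and 19.7 TPM in lines 66, 67 and 72 (20.6 ± 1.33, SD, n = 3), so the lines lay within 1.12-fold of each other.

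Next, neighbours in the order of the levels were compared within each line. Of 9 neighbouring pairs, 5 had a single order in every line, and 4 of these had ranges that did not overlap: Egr1 above Junb, Jund above Ier2, Ier2 above Fosl2, and Atf3 above Fosb. For each of the 5 pairs the two-sided exact sign-flip test over the lines gave p = 0.25, the smallest that 3 lines allow, and an adjusted p of 0.45 over the 9 pairs, so the design cannot reach 0.05. Jun and Fosl1, Jun and Egr1, Fosl2 and Fos, and Fos and Atf3 changed places in 1 of the 3 lines. Where the effective length was taken as the plain transcript length less a fragment length, Jund stood above Junb in line 67, at 62.8 against 62.3 TPM, so this pair no longer had a single order. Under that setting Fosl1 stood above Jun, Fosl2 above Fos and Fos above Atf3 in every line, so that 7 of the 9 pairs kept the order of the mean levels. In CPM 6 pairs kept that order in every line, and 7 did with protein-coding transcripts or the main transcript length.

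The distance between lines was then set beside that of all genes. No member was over 2-fold apart between any lines, where 2.47% of the 8428 genes averaging at least 10 TPM and 7.19% of the 12528 genes averaging at least 1 TPM were. At these shares a set of 10 genes holds few or none such, so the count of 0 says nothing particular about the members. Over 1.5-fold, Fos and Jund were called, 2 of the 9 members averaging at least 1 TPM, beside 19.7% of all such genes.

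**Figure D2:**
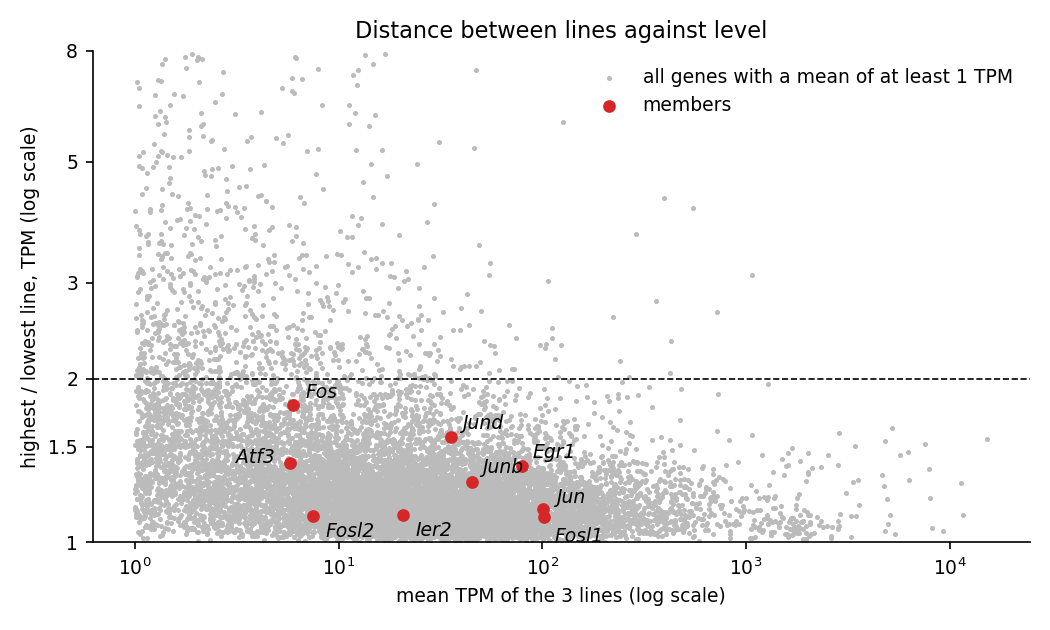
Highest over lowest of the 3 lines in TPM (log axis) against the mean TPM (log axis), for the 12528 genes averaging at least 1 TPM in grey and the 9 members among them in red. The dashed line marks 2-fold, below which all 9 members lie. The axis ends at 8-fold, so 57 genes above it are not drawn, nor are 4 genes listed at 0 in a line. Fosb, with a mean of 0.755 TPM, is not in this plot.

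Line 66 held the highest level of 5 of the 9 members, namely Fos, Junb, Egr1, Atf3 and Ier2, where 29.8% of the genes averaging at least 1 TPM were highest in that line. Fosl1 and Jund were highest in line 67 (25.8% of all such genes), and Fosl2 and Jun in line 72 (44.4%). Line 72 held the lowest level of 4 members, Junb, Jund, Egr1 and Ier2 (21.0% of all such genes), line 66 that of Fosl1, Fosl2 and Jun (44.2%), and line 67 that of Fos and Atf3 (34.8%). In CPM line 72 was lowest for 6 of 9 members, Fos and Atf3 included (25.4% of all such genes), and line 66 was again highest for 5 (32.8%). These shares describe 3 libraries and carry no test.

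Differentiation and cell cycle genes stood lowest in line 66. All 12 genes of a differentiating muscle list were lowest in line 66, with medians of 7.54, 8.10 and 8.35 on the log2(TPM + 1) scale in lines 66, 67 and 72, and of the 11 averaging at least 10 TPM, Mymx, Actc1 and Myl1 were over 2-fold apart (2.47% of all such genes). All 10 cell cycle genes were also lowest in line 66, with medians of 6.19, 6.64 and 6.65, where 44.2% of all genes were lowest in that line. The summed fibroblast markers had 8.29, 28.8 and 37.6 TPM, the endothelial markers 1.79, 0.726 and 1.21, and the immune markers 3.93, 2.97 and 4.31. Col1a2 made up nearly all of the fibroblast sum, while the other 5 genes of that list were under 1 TPM in every line, and Pdgfra among them had 0.454, 0.378 and 0.387 TPM. The part of these differences in the members' levels was not tested. In bulk RNA, more cells with a transcript and more transcript per cell cannot be told apart.

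AP-1 is assembled from the 7 Fos and Jun proteins, so the share of each gene in their summed TPM was computed. The sum was 289, 315 and 289 TPM in lines 66, 67 and 72 (297 ± 15.1, SD, n = 3). The Jun family made up 61.3%, 62.0% and 60.1% of it (61.1% ± 0.986, SD, n = 3), a share that changed little between lines.

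**Figure D3:**
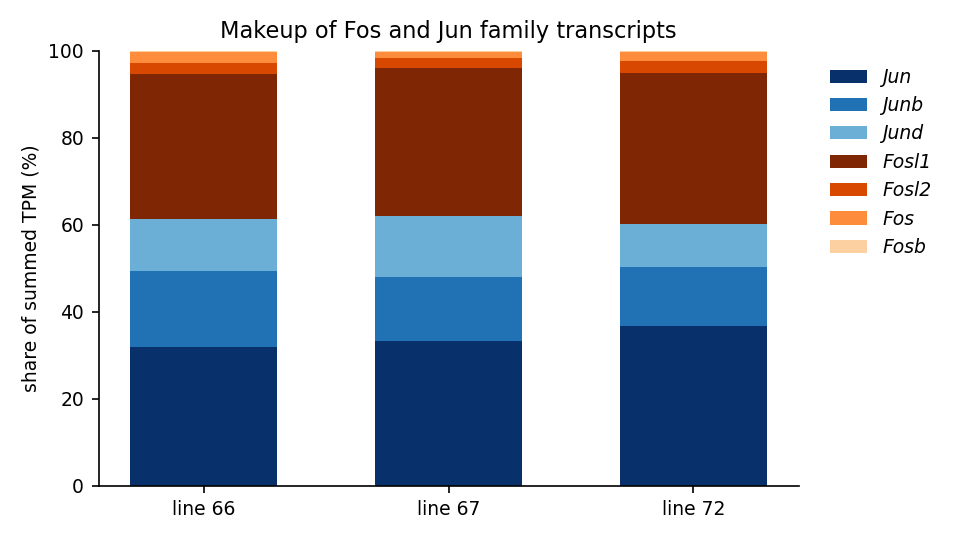
Share of each of the 7 Fos and Jun genes in their summed TPM, in percent, with 1 stacked bar per line. Jun and Fosl1 fill about equal shares, 32.0% to 36.8% and 33.3% to 34.9%, while Fos, Fosl2 and Fosb together form a thin band.

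Fosl1 alone held 33.3%, 34.1% and 34.9% of the sum, and 86.1%, 89.7% and 87.3% of the Fos family. Jun held 32.0%, 33.2% and 36.8% of the sum, and 52.2%, 53.5% and 61.3% of the Jun family. Both families were thus led by 1 gene, and by a wider margin in the Fos family. Junb held 17.4%, 14.7% and 13.4% of the sum, and Jund 11.9%, 14.1% and 9.82%. Fos, by contrast, held 2.65%, 1.35% and 2.03%, Fosl2 2.49%, 2.32% and 2.78%, and Fosb at most 0.272%. These are shares of mRNA, and protein was not measured.

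The levels of Fos and Atf3 depended on how reads were divided between transcripts. The coding transcript Fos-201, of 2108 bases, had 4.25, 3.71 and 2.66 TPM in lines 66, 67 and 72, so that line 72 was lowest. The non-coding Fos-202, of 631 bases, had 2.64, 0.445 and 3.01 TPM, but on only 56.7, 8.80 and 60.4 estimated counts. It made up 34.6%, 10.4% and 51.4% of the gene's level, and with it line 67 became the lowest.

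Atf3 showed the same feature. Its coding transcripts Atf3-201 and Atf3-203 together had 4.0, 2.47 and 1.86 TPM, a 2.15-fold distance between lines 66 and 72. The non-coding Atf3-202, of 517 bases, had 2.88, 2.45 and 3.66 TPM and made up 41.9%, 49.8% and 66.4% of the gene's level. With coding transcripts only, Atf3 was the 1 member over 2-fold apart, as were 6.68% of the 11389 genes averaging at least 1 TPM in such transcripts. The split is an estimate of the quantification program from shared reads, and short transcripts turn few counts into a high TPM.

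**Figure D4:**
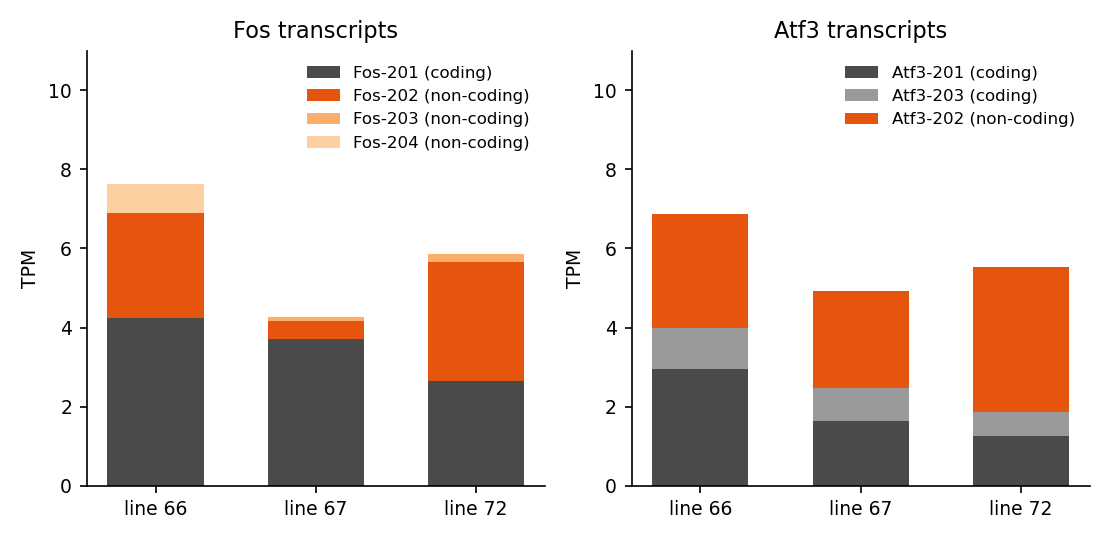
TPM of the transcripts of Fos (left) and Atf3 (right), with 1 bar per line stacked to the level of the gene, coding transcripts in grey and non-coding ones in orange. The non-coding Fos-202 (0.445 to 3.01 TPM) and Atf3-202 (2.45 to 3.66 TPM) make up 10.4% to 51.4% and 41.9% to 66.4% of the gene total, the smallest share of Fos-202 being in line 67, and the coding Fos-201 stands at 4.25 in line 66 and 2.66 in line 72.

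Fosb is known for a truncated product, ΔFosB, that lacks the end of the protein. Fosb-206 has a coding sequence of 711 bases that is identical to the first 711 of the 1014 bases of Fosb-201 and is followed by a TGA stop codon. Fosb-206 had 0.127, 0.106 and 0.125 TPM in lines 66, 67 and 72, on 7.35, 5.68 and 6.92 estimated counts, beside 0.450, 0.571 and 0.551 TPM of the full-length Fosb-201. With so few counts the lines could not be ranked. The retained-intron transcript Fosb-204 made up 18.4%, 11.8% and 14.0% of the Fosb level, on 28.7, 18.7 and 23.2 estimated counts. In Fosl2, the retained-intron transcript Fosl2-203 made up 23.5%, 21.8% and 25.3% of the level.

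Several members share the genome with a gene on the opposite strand. Fosl1 overlaps Ccdc85b over 2767 bases (6.03, 6.11 and 5.98 TPM in lines 66, 67 and 72), and 54.5% of the 31-base words of Fosl1 lie on the opposite strand of another gene. For Jund the share was 50.1%, with Gm11175 at 0.816, 1.27 and 0.607 TPM. It was 6.39% for Jun, with Junos, and 6.51% for Junb, with Prdx2 at 481, 428 and 499 TPM. The kit kept the strand, but whether counting used it is not given in the sources used here, so the values of Fosl1, Jund, Junb and Jun are uncertain to that extent. For Junb the overlap is short, at 351 bases, but Prdx2 stood far above it. No 31-base word was shared between members, and at least 99.9% of each member's words occurred in no other gene.

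The genes around these members in the pathway were then counted in lists taken from general knowledge, each to be read beside the 31.5% of detected genes that had at least 10 TPM in every line and the 49.1% that were under 1 TPM in every line. Of 26 other immediate early genes, 13 passed the first of these limits and 3 fell under the second. Ccn1, which encodes a matrix protein, was highest at 233, 197 and 226 TPM, followed by the small GTPase gene Rhob at 137, 125 and 115, and Egr4 was lowest with 3, 3 and 2 counts. Among the 14 averaging at least 10 TPM, the single gene over 2-fold apart (2.47% of all such genes) was Dusp1, which encodes a phosphatase that switches off MAP kinases, at 61.2, 25.0 and 32.5 TPM. Of the 23 averaging at least 1 TPM, 11 were highest in line 66 and 13 lowest in line 72, beside 29.8% and 21.0% of all such genes.

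Among 12 other bZIP partners, 6 had at least 10 TPM in every line. Atf4, a factor of the integrated stress response, had 287, 342 and 333 TPM, and Jdp2, a repressor that pairs with Jun, had 57.4, 74.8 and 70.7. Batf, known from immune cells, had 1, 0 and 0 counts.

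All 7 genes for serum response factor, its coactivators and CREB had at least 10 TPM in every line, and none was over 2-fold apart, beside 31.5% of detected genes and 2.47% of genes averaging at least 10 TPM. At the latter share a count of 0 says nothing particular about a list of this size. Elk3, an Ets factor that binds beside serum response factor, had 65.2, 50.2 and 52.8 TPM, Srf itself 41.3, 53.3 and 50.3, and Mrtfa, the lowest, 10.6, 10.2 and 10.4. Of 15 MAP kinase pathway genes, 12 had at least 10 TPM in every line. Map2k2, which encodes MEK2, had 142, 112 and 115 TPM. Mapk10, a JNK gene known from neurons, was lowest, with 5.98, 16.5 and 15.0 estimated counts.

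Of 10 genes whose products limit the members, 8 had at least 10 TPM in every line. Hnrnpd, which encodes the AU-rich element binding protein AUF1, had 618, 816 and 775 TPM, and Zfp36l2, of the family that degrades such mRNAs, had 180, 165 and 147. In estimated counts Zfp36l2 stood above Hnrnpd, at 33740, 28470 and 25781 against 15900.5, 18719.4 and 17591.5. The lead of Hnrnpd in TPM thus rests on the lengths used. Zfp36, which encodes tristetraprolin, was lowest at 9.63, 7.43 and 7.10 TPM. Of 13 commonly cited AP-1 target genes, 9 had at least 10 TPM in every line and 4 were under 1 TPM in every line. Spp1, which encodes osteopontin, had 6492, 3997 and 5208 TPM and Ccnd1, which encodes cyclin D1, had 510, 412 and 475, while the matrix protease gene Mmp3 had 0, 1 and 0 counts.

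**Figure D5:**
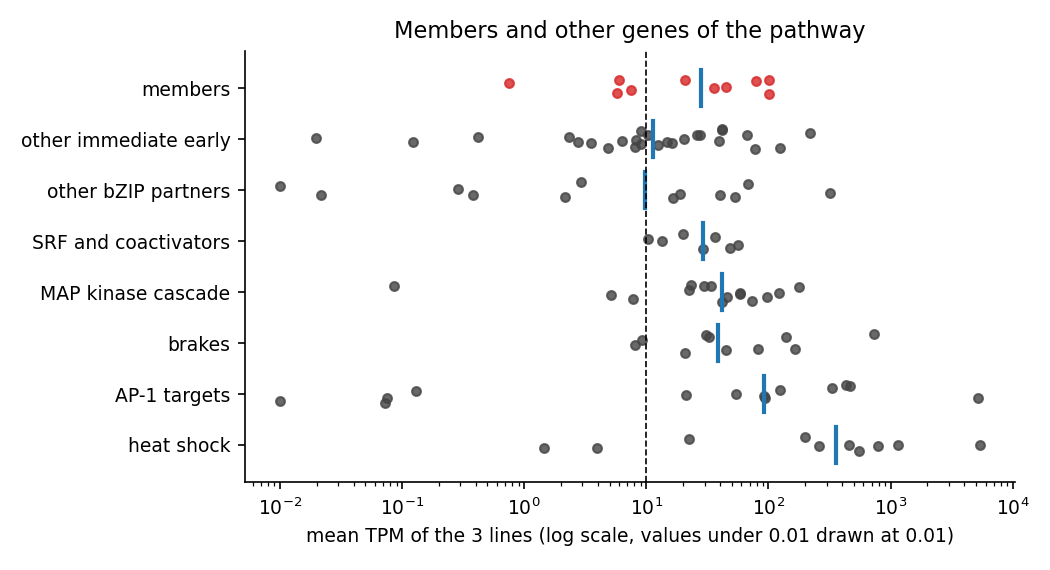
Level of each gene in the lists around the members, as the mean of the 3 lines in TPM (log axis), with 1 row of points per list, the members in red, a blue bar at the median of the list and a dashed line at 10 TPM. The smallest values are drawn at the left edge of the points. All genes of the list of serum response factor and its partners lie above 10 TPM, while the lists of other immediate early genes, bZIP partners, MAP kinases and target genes also hold genes under 1 TPM.

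Heat shock genes, which respond to handling stress, were counted because Fos, Atf3 and Egr1 can respond to it as well. Of 10, 8 had at least 10 TPM in every line and none of those was over 2-fold apart (2.47% of all genes averaging at least 10 TPM). The constitutive chaperone gene Hspa8 had 5465, 5278 and 5427 TPM, Hsp90aa1 had 1192, 1131 and 1163, and the inducible gene Hspa1a was lowest at 1.52, 1.75 and 1.06. Hspa1a shares reads with its near-identical copy Hspa1b, so its value is uncertain. Of the 10, 4 were highest in line 66 and 4 lowest there, beside 29.8% and 44.2% of all genes averaging at least 1 TPM, and their part in the members' levels was not tested.

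Finally, the genes whose deviations of the 3 lines from their own mean were nearest to those of Fos and Jun were named, as a description over 3 libraries. For Fos these were Tvp23b, Rnaset2b and Dnajc12, at log2 distances of 0.00521, 0.00995 and 0.0103, and 9 of 8428 genes lay within 0.05. For Jun they were Mrps31, Isoc1 and Rc3h1, at 0.00259, 0.00277 and 0.00318, and 496 of 8427 genes lay within 0.05. A pattern over 3 lines such as that of Jun is thus shared by many genes. The pattern matched for Fos, with line 67 lowest, is that of the summed TPM and rests on Fos-202, since line 72 was lowest for Fos in CPM and for the coding transcript.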

How the data were processed

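RNA-seq libraries of 3 lines were used (poly-A-enriched, stranded TruSeq kit). Per the labels' processing notes the submitters used bcl2fastq 2.20, fastp 0.20 and kallisto 0.46.1 with the genome GRCm39. The authors deposited an estimated count per transcript, with no normalization, and a TPM value, the estimated count over the effective length, scaled to 1000000 per library. Of 121798 transcripts, 120686 matched GENCODE M21 (GRCm38) by identifier. The others, 0.493% to 0.535% of counts, were left out, and 509 matched transcripts differed in length. All coordinates are those of GRCm38. Both values were summed per gene. Genes above 0 TPM in any line count as detected.

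Levels were given as TPM or log2(TPM + 1). CPM is the estimated count per 1000000 of the library total, and its 95% intervals are exact Poisson intervals. A count of 0 allows up to 3 counts. Lines were taken as replicates, and the labels do not say whether they came from separate animals, so the SD may be in part technical. Neighbouring members were compared by a two-sided exact sign-flip test with Benjamini-Hochberg adjustment. The members and lists were chosen with earlier results of these data known. The genes named are all members, the 2 highest and the lowest of each other list with those over 2-fold apart, and the 3 genes nearest to Fos and to Jun. Not every gene this rule allows is printed for the lists of other cell types, differentiation and cell cycle. One gene of the MAP kinase list that the rule names is not reported here. Lum was named after its values were seen, and Gm11175, Junos, Prdx2 and Ccdc85b because they overlap members.

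Alternatives were another pseudocount, CPM, TMM factors (edgeR 4.0.16) and DESeq2 1.42.0 size factors made from counts rounded to whole numbers, other sets of transcripts and lengths, other thresholds, and leaving out each line. Of the steps, only the over-2-fold rule was tested on simulated data. Calculations used scipy 1.17.1, pandas 2.3.3 and numpy 2.4.6 in Python 3.11.15, with plots by matplotlib 3.10.9, and R 4.3.3.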

Additional observations from a re-analysis of the deposited data

How the results depend on the processing

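The median level of the members, 4.80 on the log2 scale, was 5.30 in CPM, 4.32 with transcripts of the annotated length only, 5.22 with the plain effective length and 4.97 with the gene count over the length of the main transcript. The share of the Jun family in the AP-1 sum, 61.1%, was 66.2% in CPM, 55.8% with transcripts of the annotated length, 63.1% with protein-coding transcripts and 62.6% with the main transcript length. Transcripts of the annotated length give no value for Ier2 and Jund, whose listed lengths differ, so their absence moved these values. The 0 members over 2-fold apart became 1 with protein-coding transcripts (Atf3) and 2 at a threshold of 1.5 (Fos and Jund), and the share of all genes over 2-fold apart went from 2.47% to 7.19% at a mean of at least 1 TPM, and to 6.68% at that mean with protein-coding transcripts. Leaving out each line gave a median of 4.73 to 4.89, a Jun family share of 60.7% to 61.6%, 0 members over 2-fold apart, 6 members with at least 10 TPM, and 6 to 7 neighbouring pairs with a single order. TMM factors and DESeq2 size factors moved none of the members' levels by more than the spread of the lines. Of 108 member values under alternatives, 28 moved by more than that spread, 9 of them in CPM and 8 with the plain effective length, of which the deposited one was 1.06 to 1.39 times as long. The alternatives with the plain effective length, protein-coding transcripts and the main transcript length, and those for the order of the levels, were chosen after seeing the data. No paired analysis was possible because there is only 1 group of samples. With 1 library per line, a difference between lines cannot be told apart from a difference between cultures or preparations.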
